A study of Arabidopsis thaliana with 12 samples.

Results

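A set of 68 probe sets stood higher in leaves of Arabidopsis exposed to formaldehyde, with low and high means within 1 of each other on the log2 scale. In 52 of them the high mean was the larger. The array of 22746 probe sets (controls left out) was searched for those whose low and high group means both lay at least 1 on the log2 scale above the air mean and the outside mean, with the low and high means no more than 1 apart. 71 probe sets met these thresholds, 0.312% of those tested, and 3 of them belong to the 6 genes that the rule sets aside (WRKY22, WRKY53, GH3.3, WES1, EXLA1 and PUB22). The other 3 of the 6 did not meet the thresholds. The members were chosen by all 4 group means, so differences between formaldehyde and control groups, and between the doses, are given below as descriptions with no test.

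Rosette leaves of 12 Columbia plants, 7 weeks old, were measured with a single array per plant. Every plant, the controls included, carried the AB genotype, rmpA and rmpB of Mycobacterium gastri MB19 expressed in chloroplasts. Their products are hexulose phosphate synthase and hexuloisomerase, which fix formaldehyde into sugar phosphates. Plants lacking these genes are not analysed here, so all values belong to formaldehyde-assimilating leaves. After 72 h of acclimation in constant light at 24 °C, 3 plants each were treated for 150 min. The outside group stayed out of the chamber (under 0.08 ppm formaldehyde). The air group was placed in the ventilated 10 L chamber with clean air (under 0.04 ppm), the low group there at 1 to 2 ppm and the high group at 14 to 16 ppm. Plants of a chamber condition shared the chamber, so chamber run and condition cannot be told apart, and tests below cover the spread between plants only. The sources used here name neither the promoter of the transgenes nor the number of transgenic lines.

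Formaldehyde is a reactive carbonyl compound that binds to thiols and amines and cross-links proteins and nucleic acids. Plant cells capture it with glutathione and oxidise it by way of formate, and the transgenic route adds a path into the Calvin cycle. Leaves answer reactive compounds within minutes to hours through transcription factors, their small partner proteins, redox proteins such as glutaredoxins, and regulators of protein turnover and of the cell wall.

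Of the 68 members, 33 were paired with a single gene by the annotation table, and these represent 32 genes, since AT2G30600 has a pair of probe sets. The other 35 have no gene in the table and are described by counts only. For the genes known by locus, protein classes are background knowledge and not part of the files. By these classes, 4 genes belong to transcription and chromatin, 3 are glutaredoxins, 3 act in signalling and immunity, 5 in protein turnover or as adaptors, 5 in cell wall, membrane or cytoskeleton and 3 in lipid metabolism, other metabolism or calcium binding. The remaining 9 have no known role given here. No nucleotide or protein sequences of the members were used here.

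Values are log2 intensities, the authors' GCRMA values. For each member, the margin is the smaller of its low and high means minus the larger of its air and outside means, so a margin of 1 is a 2-fold level over the higher control. In leaf RNA of mixed cell types, fewer cells of a type and less RNA per cell cannot be told apart. Margins ran from 1.01 to 4.31 with a median of 1.47, or 2.78-fold. A margin of at least 2 was reached by 14 members and one of at least 3 by 6. Below its limit the nearest probe set was that of THE1, a receptor kinase that senses the cell wall, with a margin of 0.998, and just inside it lay AT3G50560 with 1.01. At the limit on the distance between doses, a member with 0.994 lay inside and AT5G46710 with 1.07 outside.

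**Figure D1:**
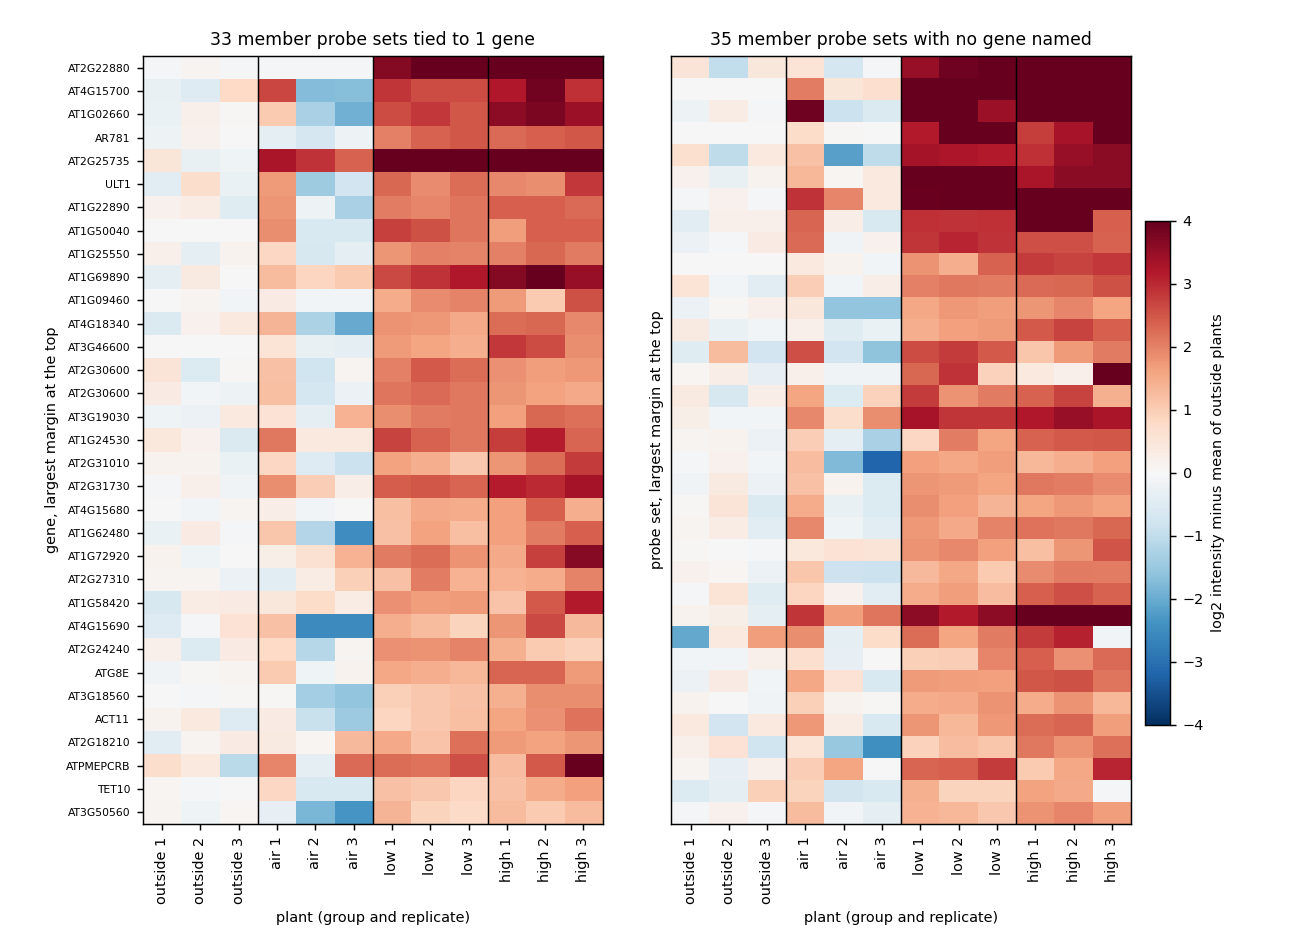
Log2 intensity minus the mean of the outside plants (colour, saturated at 4 in both directions) for the 68 members (rows) in the 12 plants (columns, with lines between groups). The 6 formaldehyde plants are red in nearly every row, and air plant 1 is redder than air plants 2 and 3 in most rows.

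Control plants did not form a uniform background for these genes. Relative to the outside mean, the median over the members was 1.08 in air plant 1, -0.31 in air plant 2 and -0.21 in air plant 3. The low plants had 1.84, 1.91 and 1.98, and the high plants 2.14, 2.36 and 2.34. Air plant 1 therefore stood between the other control plants and the low plants. It was the highest of the 6 control plants for 51 of 68 members, against 11.8% of all probe sets, and lay above all outside plants for 58, against 22.1%. Across all probe sets, which are not independent replicates, its highest correlation was with low plant 1 (r = 0.995). The median SD of the members was 0.89 in the air group and 0.22 to 0.30 in the other groups, while probe sets with all group means of at least 4 had a median SD of 0.21 in air. With air plants 2 and 3 left out together, a choice made after seeing the data, 29 of the 68 met the rule. With air plant 1 left out, 81 probe sets met it, 66 of them members. What set air plant 1 apart was not tested.

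**Figure D2:**
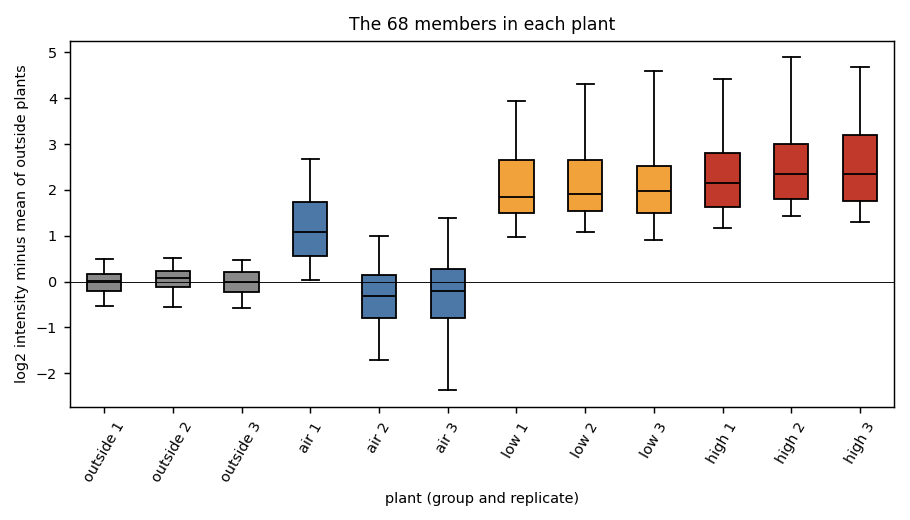
Log2 intensity minus the mean of the outside plants for the 68 members in each plant. Boxes span the quartiles, lines mark medians and whiskers reach the 5th and 95th percentiles. The median is 1.08 in air plant 1 and at least 1.84 in each formaldehyde plant.

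Between plants, the lowest formaldehyde plant minus the highest control plant ran from -1.99 to 3.55 over the members. In 49 of 68 all formaldehyde plants lay above all control plants, against 2.12% of all probe sets, a count that the rule itself favours. Of the 19 members without such separation, 14 had air plant 1 as their highest control plant, beside 51 of all 68 members and 11.8% of all probe sets. Low and high plants overlapped in 35 members. In 27 of the other 33 members the high plants lay above the low ones and in 6 below, while over all probe sets 43.6% had low and high apart, 19.1% with high above low and 24.5% with low above high. The rule bounds the distance between doses, so these shares are set side by side with no test. High means exceeded low means in 52 members and fell short in 16, and 34 had the doses within 0.5. Without the limit on that distance 228 probe sets, the genes set aside included, stood at least 1 above both controls at both doses. Of these, 156 were higher at the high dose by more than 1 and a single one was higher at the low dose by more than 1.

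**Figure D3:**
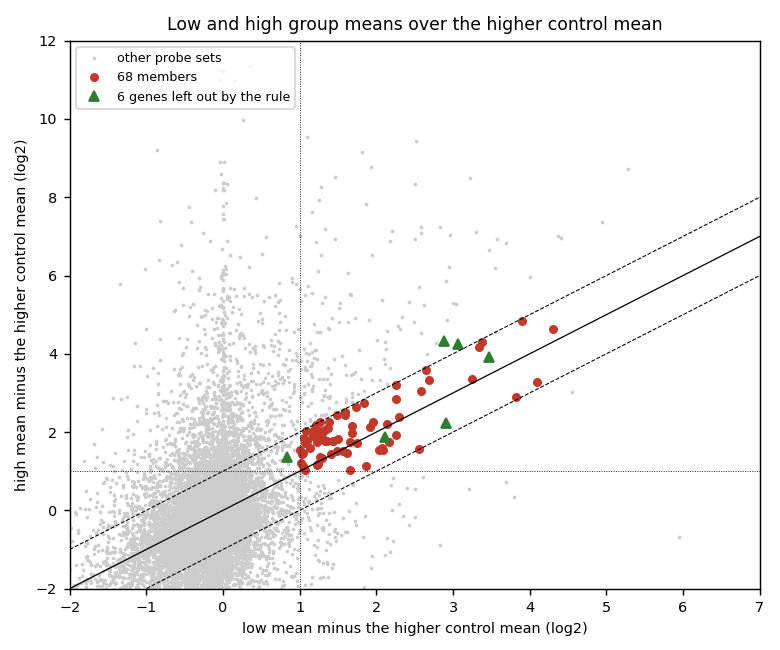
Low group mean minus the higher control mean (x axis, log2) against the same for the high group (y axis, log2), a point per probe set. Dotted lines mark the limit of 1, dashed lines a distance of 1 between doses, red points the 68 members and green triangles the 6 genes set aside. Members lie in the band around the diagonal, and 156 probe sets past both limits lie above it.

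Among signalling genes, AT2G22880 had the largest margin of the set. It encodes a VQ-motif protein, a class of small nuclear proteins that bind WRKY transcription factors. The values of AT2G22880 were 2.11, 2.29 and 2.13 outside and 2.13 in every plant in air. With formaldehyde they were 5.84, 6.31 and 7.31 at the low and 6.50, 7.17 and 6.79 at the high dose. Both control groups lay within 0.5 of the lowest value on the array, 2.11, so the signal was at least 20.5-fold higher in the low and at least 25.8-fold higher in the high plants than in air. The low and high plants overlapped, and air plant 1 was as low as the other controls. AT1G72920 stood at 6.12, 5.83 and 6.01 outside the chamber, 6.23, 6.59 and 7.37 in chamber air, 8.08, 8.23 and 7.77 at the low dose and 7.49, 8.72 and 9.62 at the high dose. This gene encodes a TIR-domain protein, of the kind found in immune receptors. Its highest control was air plant 3, and its high plants, from 7.49 to 9.62, were spread wider than the low plants. For AT2G31010 the outside plants gave 3.13, 3.13 and 2.74 and the air plants 3.81, 2.49 and 2.13. The low dose gave 4.61, 4.44 and 4.08 and the high dose 4.77, 5.22 and 5.79. It encodes a protein kinase. A second probe set of AT2G31010 gave 2.44 outside, 2.36 in air, 2.94 in low and 2.86 in high as group means, a margin of 0.42. Both control means of this second probe set lay within 0.5 of the lowest value, so its size is uncertain.

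Transcription and chromatin genes were led by ULT1, a SAND-domain protein that works with trithorax factors in floral meristems. Signals of ULT1 were 6.63, 6.19 and 6.54 in low plants and 6.22, 6.17 and 7.13 in high plants. Outside plants had 3.87, 5.02 and 4.06 and air plants 6.02, 2.90 and 3.55. Its low and high means differed by 0.06, and air plant 1 came close to the lowest formaldehyde plant. In the low plants AT1G25550 read 10.61, 10.85 and 10.82, and in the high plants 10.88, 11.14 and 10.94. Its controls read 9.04, 8.50 and 9.00 outside and 9.67, 8.19 and 8.48 in air. This locus encodes a G2-like repressor of the NIGT1 family, known from nitrate signalling. Low and high means stood 3.95-fold and 4.60-fold above air, with both doses clear of all controls. AT3G46600 read 7.92, 7.92 and 7.96 in the outside plants and 8.50, 7.64 and 7.55 in the air plants. Its low plants read 9.65, 9.53 and 9.39 and its high plants 10.76, 10.54 and 9.79. It encodes a GRAS-family regulator, and its high plants all lay above its low plants. The values of AT2G31730 were 6.48, 6.78 and 6.42 outside and 8.40, 7.55 and 6.84 in air. With formaldehyde they were 8.98, 9.06 and 8.88 at the low and 9.70, 9.54 and 9.89 at the high dose. This gene codes for a basic helix-loop-helix protein. Here the air mean was the higher control, at 7.60 ± 0.78 (SD, n = 3) against 6.56 ± 0.19 outside.

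The 3 glutaredoxin members, AT4G15680, AT4G15690 and AT4G15700, are neighbours in the reference annotation with no other protein-coding gene between them. They encode CC-type glutaredoxins, a class found in land plants whose members bind TGA transcription factors. Near-identical copies can share probes, so single values of this cluster are uncertain. AT4G15700 stood at 5.08, 4.88 and 6.20 outside the chamber, 8.06, 3.67 and 3.70 in chamber air, 8.25, 7.98 and 7.98 at the low dose and 8.59, 9.24 and 8.31 at the high dose. In air plant 1 it was as high as in low plants, while the other air plants lay below all outside plants. For AT4G15690 the outside plants gave 5.69, 6.16 and 6.79 and the air plants 7.38, 3.68 and 3.68. The low dose gave 7.67, 7.49 and 7.09 and the high dose 7.98, 8.86 and 7.50. It had the same order, with air plant 1 above low plant 3. Signals of AT4G15680 were 3.41, 3.71 and 3.70 in low plants and 3.83, 4.59 and 3.64 in high plants. Outside plants had 2.18, 2.11 and 2.33 and air plants 2.46, 2.11 and 2.18. This copy gave a weak signal, and its control plants all lay between 2.11 and 2.46, with air plant 1 the highest. The low and high means of AT4G15680 were at least 2.56-fold and at least 3.41-fold above air. Another measured gene of the cluster, AT4G15660, missed the rule with a margin of 0.77. It read 6.12 in air plant 1 and 2.92 and 3.38 in the other air plants, and its means were 5.73 outside, 6.51 in low and 7.33 in high plants.

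**Figure D4:**
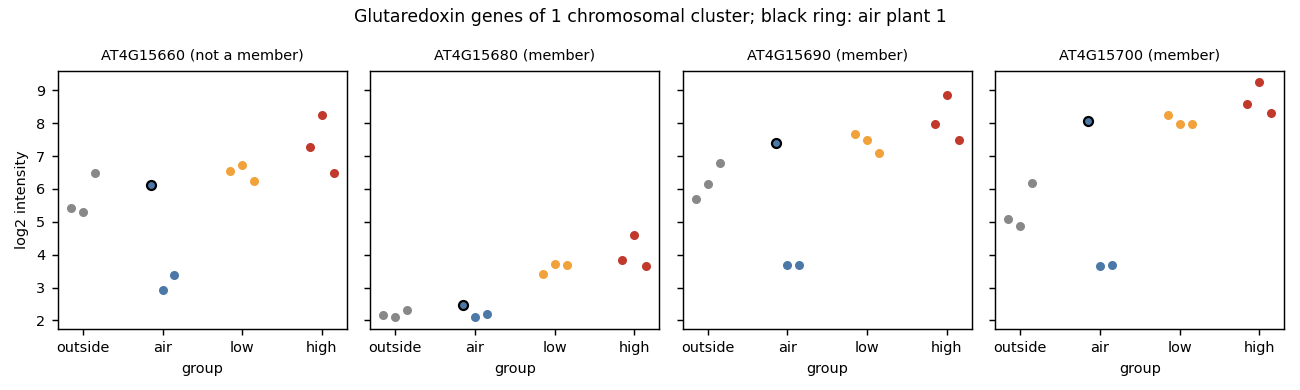
Log2 intensity (y axis) of 4 glutaredoxin genes of the cluster, a point per plant in 4 groups (x axis), with a black ring around air plant 1. For AT4G15700 and AT4G15690 the ringed point lies among the low plants, at 8.06 and 7.38, and the other air plants lie near 3.68.

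Genes of protein turnover and adaptors included AT2G30600 with both its probe sets. It encodes a BTB/POZ-domain protein, a type that can bring substrates to cullin-based ubiquitin ligases. In the low plants AT2G30600 read 10.82, 11.24 and 11.03, and in the high plants 10.61, 10.48 and 10.54. Its controls read 9.30, 8.25 and 8.84 outside and 9.98, 7.99 and 8.91 in air. The second probe set had means of 9.73 ± 0.29 (SD, n = 3) outside, 9.82 ± 0.99 in air, 11.91 ± 0.09 in low and 11.36 ± 0.13 in high plants. Both probe sets thus gave higher means at the low than at the high dose, by 0.49 and 0.54. AT2G24240 read 6.05, 5.31 and 6.19 in the outside plants and 6.63, 4.70 and 5.95 in the air plants. Its low plants read 7.67, 7.63 and 7.82 and its high plants 7.28, 6.91 and 6.76. This is another BTB/POZ-domain gene, and its low plants all lay above its high plants. The values of AT1G24530 were 5.13, 4.89 and 4.14 outside and 6.83, 5.10 and 5.10 in air. With formaldehyde they were 7.41, 7.08 and 6.83 at the low and 7.50, 7.85 and 7.03 at the high dose. It encodes a WD40-repeat protein, and air plant 1 and low plant 3 tied at the same value. AT2G27310 stood at 2.87, 2.84 and 2.52 outside the chamber, 2.29, 3.05 and 3.70 in chamber air, 3.91, 4.79 and 4.13 at the low dose and 4.15, 4.23 and 4.73 at the high dose. The F-box protein gene AT2G27310 was weakly expressed, and its doses differed by 0.09. For ATG8E the outside plants gave 9.28, 9.49 and 9.54 and the air plants 10.50, 9.26 and 9.57. The low dose gave 10.99, 10.88 and 10.75 and the high dose 11.75, 11.77 and 11.14. ATG8E is a ubiquitin-like protein of autophagosome membranes. Its means were 2.13-fold above air at the low and 3.43-fold above at the high dose.

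Cell wall, membrane and cytoskeleton members had small margins, with a median of 1.05 over 5 genes. Signals of AT1G09460 were 3.75, 4.17 and 4.25 in low plants and 3.97, 3.32 and 4.81 in high plants. Outside plants had 2.27, 2.37 and 2.16 and air plants 2.60, 2.16 and 2.16. It encodes a protein with an X8 carbohydrate-binding domain. Its control plants lay near the lowest value of the array, so the low mean was at least 3.36-fold and the high mean at least 3.31-fold above air. In the low plants AT4G18340 read 6.82, 6.74 and 6.52, and in the high plants 7.25, 7.32 and 6.94. Its controls read 4.44, 5.19 and 5.41 outside and 6.37, 3.76 and 3.00 in air. This gene encodes a family 17 glycosyl hydrolase, the family of beta-glucanases that act on callose. Air plant 1 lay close below the lowest formaldehyde plant. ACT11 read 6.33, 6.58 and 5.68 in the outside plants and 6.54, 5.31 and 4.74 in the air plants. Its low plants read 7.06, 7.29 and 7.40 and its high plants 7.77, 8.01 and 8.37. ACT11 is an actin, and its high plants lay above its low plants. The values of TET10 were 8.34, 8.18 and 8.26 outside and 9.10, 7.65 and 7.65 in air. With formaldehyde they were 9.44, 9.34 and 9.11 at the low and 9.42, 9.76 and 9.89 at the high dose. TET10 is a tetraspanin, a membrane protein, and its air plant 1 came within 0.01 of low plant 3. ATPMEPCRB stood at 4.14, 3.81 and 2.35 outside the chamber, 5.39, 3.04 and 5.70 in chamber air, 5.65, 5.59 and 6.01 at the low dose and 4.68, 5.90 and 7.92 at the high dose. ATPMEPCRB is the pectin methylesterase PME41. Of its formaldehyde plants 3 lay below the highest control, air plant 3, the widest overlap among the named members.

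In lipid and other metabolism, AT1G02660 codes for a plastid lipase of the PLIP family, which releases fatty acids from chloroplast lipids. For AT1G02660 the outside plants gave 5.16, 5.62 and 5.47 and the air plants 6.47, 4.11 and 3.51. The low dose gave 8.03, 8.25 and 7.91 and the high dose 9.00, 9.18 and 8.85. Every formaldehyde plant lay above every control, with means 10.3-fold and 19.9-fold above air. Over the outside mean the same levels stood 6.27-fold and 12.1-fold higher, and air plants 2 and 3 lay below every outside plant. Signals of AT3G50560 were 7.37, 6.91 and 6.76 in low plants and 7.27, 7.06 and 7.28 in high plants. Outside plants had 6.10, 5.82 and 6.08 and air plants 5.68, 4.18 and 3.63. It encodes a short-chain dehydrogenase family protein, and its outside mean of 6.00 was the higher control. In the low plants AT1G62480 read 11.21, 11.64 and 11.25, and in the high plants 11.68, 12.12 and 12.44. Its controls read 9.77, 10.38 and 9.97 outside and 11.14, 8.88 and 7.56 in air. This gene is annotated as related to vacuolar calcium-binding proteins. Its air plants ran from 7.56 to 11.14, and air plant 1 lay just below low plant 1.

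Genes with no role given here made up the largest group among those tied to a gene, with 9 probe sets and margins from 1.04 to 2.29. AR781 read 7.47, 7.86 and 7.71 in the outside plants and 7.33, 7.00 and 7.47 in the air plants. Its low plants read 9.70, 10.05 and 10.16 and its high plants 9.93, 10.08 and 10.18. For AR781 air plant 1 lay among the other controls, and all formaldehyde plants stood at least 1.84 above them. Its doses differed by 0.09, with means 6.51-fold above air at the low and 6.93-fold above at the high dose. The values of AT2G25735 were 5.86, 5.07 and 5.20 outside and 8.65, 8.26 and 7.74 in air. With formaldehyde they were 10.31, 10.40 and 10.69 at the low and 11.44, 11.55 and 11.29 at the high dose. Levels of this gene stepped up from outside to air to low to high without overlap. AT1G22890 stood at 9.68, 9.82 and 9.03 outside the chamber, 11.29, 9.30 and 8.22 in chamber air, 11.56, 11.45 and 11.65 at the low dose and 11.91, 11.90 and 11.79 at the high dose. It was higher in air plant 1 than in the other controls. For AT1G50040 the outside plants gave 3.53, 3.50 and 3.55 and the air plants 5.40, 2.92 and 2.92. The low dose gave 6.28, 6.07 and 5.67 and the high dose 5.19, 5.93 and 5.93. In this gene air plant 1 exceeded high plant 1, and the low mean was the higher by 0.32. Signals of AT1G69890 were 8.50, 8.75 and 9.07 in low plants and 9.55, 10.07 and 9.36 in high plants. Outside plants had 5.50, 6.22 and 5.90 and air plants 7.14, 6.74 and 6.91. Its controls lay at least 1.36 below every formaldehyde plant. In the low plants AT3G19030 read 11.10, 11.32 and 11.35, and in the high plants 10.87, 11.53 and 11.44. Its controls read 9.08, 9.00 and 9.64 outside and 9.83, 8.87 and 10.62 in air. Here air plant 3 was the highest control, 0.25 below the lowest formaldehyde plant. AT1G58420 read 2.78, 3.69 and 3.75 in the outside plants and 3.87, 4.15 and 3.69 in the air plants. Its low plants read 5.23, 5.07 and 5.09 and its high plants 4.54, 5.85 and 6.57. Its high plants spanned its low plants. The values of AT3G18560 were 6.68, 6.60 and 6.73 outside and 6.70, 5.30 and 5.09 in air. With formaldehyde they were 7.64, 7.76 and 7.84 at the low and 8.10, 8.54 and 8.52 at the high dose. This gene was lower in air plants 2 and 3 than in any outside plant. AT2G18210 stood at 3.38, 3.91 and 4.16 outside the chamber, 4.17, 3.89 and 5.13 in chamber air, 5.33, 4.96 and 6.02 at the low dose and 5.53, 5.42 and 5.59 at the high dose. In AT2G18210 low plant 2 lay below air plant 3.

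**Figure D5:**
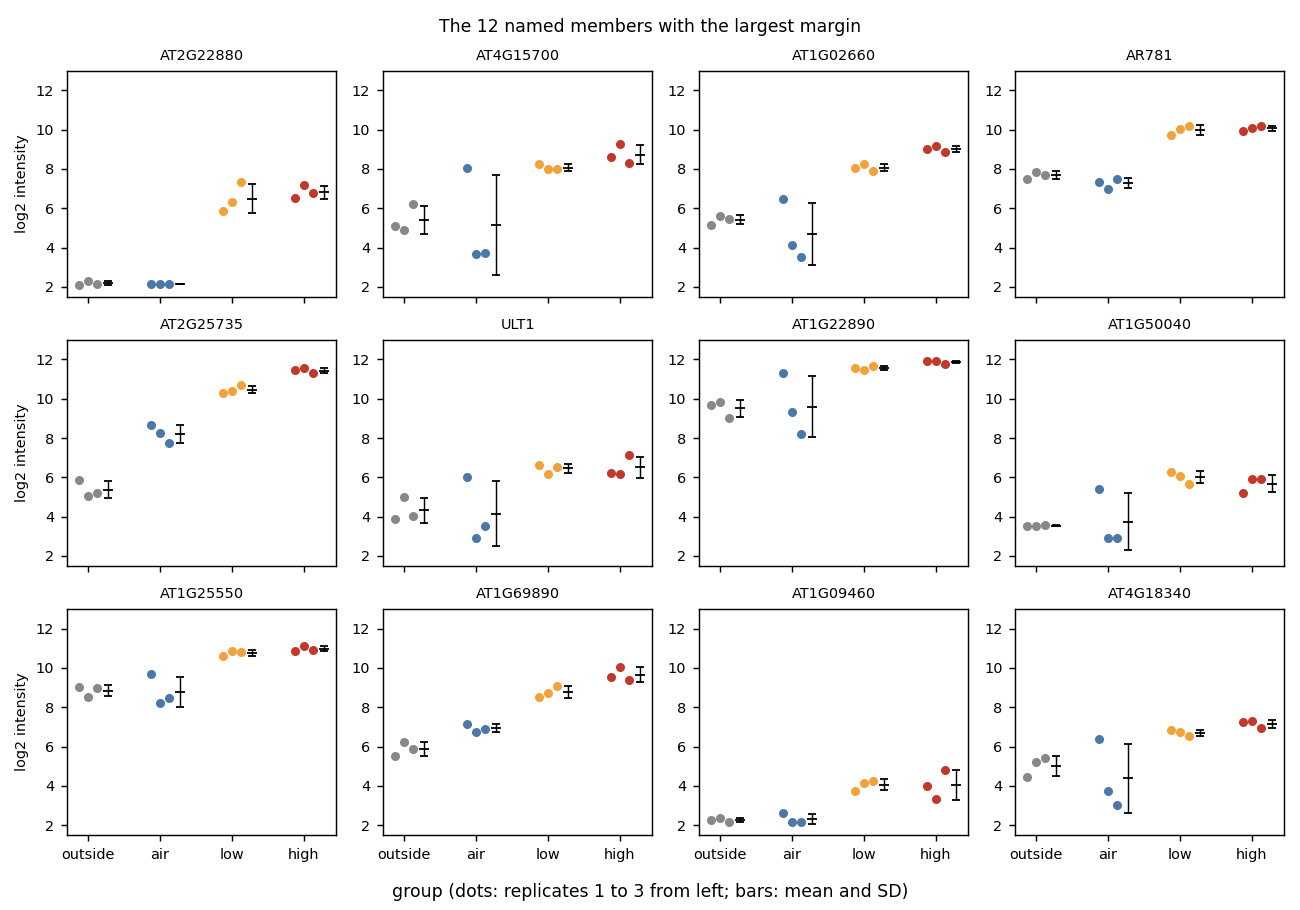
Log2 intensity (y axis) of the 12 named members with the largest margins, in 4 groups of 3 plants (x axis). Dots are replicates 1 to 3 from left to right and bars are the mean and SD. AT2G22880 and AR781 lack the high reading in air plant 1 that AT4G15700, ULT1 and AT1G22890 show.

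The 35 members with no gene in the table had margins from 1.01 to 3.90 with a median of 1.49, and in 22 of them all formaldehyde plants lay above all controls. Among the 33 tied to a gene, 27 had such separation. Over all probe sets 2.12% had it, and the rule itself favours it, so nothing is read from these counts.

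Set directly against air plant 1, the members differed among themselves. Low and high means both lay at least 1 above that plant in 29 members, 16 of them tied to a gene, and between 0 and 1 above it in 35. In 4 members the lower of both means lay below air plant 1. The largest named distances over that plant were in AT2G22880 (4.35), AR781 (2.64), AT2G27310 (1.99), AT2G25735 (1.82) and AT1G72920 (1.79). The smallest were in AT4G15700 (0.01) and AT4G15690 (0.03).

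Chamber air and outside plants are both controls, and the rule used both of their means, so the members' differences between them are a description with no test. Across the members the air mean minus the outside mean had a median of 0.18 and ran from -1.51 to 2.84, beside a median of 0 over all probe sets. In the limma fit of all probe sets, 5.6% passed the threshold in air against outside (3.1% higher and 2.5% lower), and 4 of the 68 members were among those higher in air, a count from which nothing is read. AT2G25735 had the largest difference of these, 2.84 on the log2 scale, with every air plant above every outside plant, at 7.74 to 8.65 against 5.07 to 5.86. It was not among them with the 6 arrays of both groups alone. AT1G69890 had a difference of 1.06, and its air plants, from 6.74 to 7.14, also lay above all outside plants. It was not among them in 9 of the 12 fits that left out a plant, the exceptions being outside plant 2, high plant 2 and high plant 3. The other 2 have no gene in the table and differed by 2.23 and 1.50.

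Genes of related families were counted in 13 lists. The lists held 150 probe sets, and 1 of these, ATPMEPCRB, was a member. Only probe sets tied to a gene could enter a list, so the 35 members with no gene in the table could not. Among the 149 others limma called 8 higher and 1 lower in low against air, where 1.24% of all probe sets were called (0.756% higher and 0.488% lower). In high against air 35 were higher and 20 lower, beside 34.6% of all probe sets called (14.7% higher and 19.9% lower). Both comparisons share the air plants, and the median over all probe sets was 0 in each. Both counts of higher probe sets include WRKY22 and WRKY53, which met the thresholds of the rule on these same means. Nothing is read from their calls.

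WRKY transcription factors, defence regulators that bind the W box, had 2 of 7 higher at the low dose (median log2 change 0) and 3 higher and 2 lower at the high dose (median 0). The 2 at the low dose are WRKY22 and WRKY53. Both met the thresholds, with margins of 3.46 and 2.22, and the rule sets them aside by name. The air mean of WRKY53 lay 2.22 above its outside mean, a description with no test, since the rule used both means. WRKY6, known from senescence, had 1.25 (limma adjusted p = 0.0909) at the low dose and rose by 3.89 at the high dose. WRKY47 fell by 2.28 at the high dose relative to air, but it was 2.06 higher in air than outside (limma adjusted p = 0.00195), and its high mean lay 0.21 below the outside mean (3.44 against 3.66). The immune signalling list held 2 probe sets, with medians of 0.31 and 1.82. One is BIK1, a kinase that passes on receptor signals, which rose by 1.26 ± 0.18 (SE, adjusted p = 0.0229) at the low dose and by 3.36 at the high dose. Ubiquitin ligases had 1 of 13 higher at the low dose (median 0.41) and 4 at the high dose (median 0.16). PUB24, a U-box ligase of immunity, had 0.41 (limma adjusted p = 0.528) at the low and rose by 2.51 at the high dose. The low-dose call was PUB22, which is set aside by the rule and lay outside it, with the high mean 1.44 above the low.

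Calcium sensors gave 0 of 8 calls by limma at the low dose (3 at an unadjusted p under 0.05, median 0.36) and 5 rises at the high dose (median 1.75), led by CML38 (7.93) and CML37 (5.22). CML37 lay near the lowest value elsewhere, with means of 2.13 outside, 2.12 in air and 2.11 in low plants. STZ, the single probe set in the C2H2 zinc finger list, rose by 3.54 and 6.20 over air. It was itself 3.20 higher in air than outside (limma adjusted p = 0.0136). Of 2 ERF and DREB probe sets, ORA47 rose by 6.13 at the low dose and had -0.49 (limma adjusted p = 0.531) at the high dose, with list medians of 2.96 and -0.44. In the jasmonate list of 3, MYC3 fell by 1.78 at the low and by 1.18 at the high dose, and at the high dose MYC4 fell by 2.82 and 1 probe set rose, with medians of -1.49 and -1.18. MYC3 was 0.79 higher in air than outside (limma adjusted p = 0.166). Relative to the outside mean it had -0.99 at the low and -0.39 at the high dose. The ethylene list (1 probe set, -0.08 and -0.10) and the auxin list (12 probe sets, medians 0.01 and 0) gave 0 calls by limma at either dose and 0 at an unadjusted p under 0.05. The auxin list holds GH3.3 and WES1, which the rule sets aside and which encode enzymes that join amino acids to auxin. GH3.3 met the thresholds with a margin of 1.88, so its distances from air are given as a description with no test. It stood 2.11 above air at the low dose and 1.88 above at the high dose. Air plant 1 of GH3.3, at 9.37, lay above every formaldehyde plant. WES1 had a margin of 0.83, with 1.15 and 1.68 over air (limma adjusted p = 0.651 and 0.270). Its air plant 1, at 6.82, lay above its low and high means of 5.49 and 6.02. Kinase cascades had 3 probe sets and medians of 0.30 and 0.23, with ATMPK8 rising by 0.49 over air at the high dose. ATMPK8 was 0.94 lower in air than outside (limma adjusted p = 0.00473), its high mean of 8.89 lay under the outside mean of 9.35, and with the 6 arrays alone its high-dose adjusted p was 0.0545.

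Of 31 cell wall probe sets that are not members, 0 were called by limma at the low dose (5 at an unadjusted p under 0.05), and 5 rose and 4 fell at the high dose, with a median of 0 in each. EXLA1, an expansin-like protein set aside by the rule, had 3.07 over air at the low dose (limma adjusted p = 0.174) and rose by 4.25 at the high dose. Its air plant 1, at 11.07, lay close to its low mean of 11.13. XTH18, a xyloglucan enzyme, rose by 8.91 at the high dose and EXLA2, an expansin-like protein, by 2.63. Both heat shock probe sets rose at the high dose (Hsp70-2 by 4.13, ATHSP22.0 by at least 4.83) and had -0.03 and 0 at the low dose, with list medians of 4.48 and -0.01. Outside, air and low means of ATHSP22.0 were all at the lowest value, 2.11, so a change below it would not show. Glutathione and glucosyl transferases had 2 rises among 64 at the low dose and 12 rises and 12 falls at the high dose, with a median of 0 in each. The low-dose rises were UGT73B1 (1.90, and 3.22 at the high dose) and UGT76C2 (1.63, and 0.17 with limma adjusted p = 0.832 at the high dose). UGT76C2 was lower in air than outside (5.85 against 7.86, limma adjusted p = 0.00622), and its low mean of 7.48 lay under the outside mean. At the high dose GSTU25 rose by 5.36 and UGT73B4 by 6.08, both from near the lowest value.

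Of the 9 low-dose calls in these lists, 6 were lost in a fit that left out a plant. WRKY22 and WRKY53 met the thresholds on these same means, and the rule sets PUB22 aside by name. Nothing is read from whether the calls of WRKY22, WRKY53 and PUB22 were kept or lost. WRKY53 was lost without air plants 2 or 3 or low plant 3, and STZ and BIK1 without air plant 2 or low plants 2 or 3. MYC3 was lost without outside plant 3, air plants 2 or 3 or low plants 2 or 3. WRKY22 kept its call only without air plant 1, high plant 1 or high plant 3, and UGT76C2 only without air plant 1, low plant 1 or high plant 3. ORA47, PUB22 and UGT73B1 kept theirs in all 12 such fits. With the replicate number as a block 5 were lost (WRKY22, MYC3, BIK1, UGT73B1 and UGT76C2), at limma adjusted p from 0.0561 to 0.0968. With the 6 arrays of the comparison alone all 9 were lost, at limma adjusted p from 0.103 to 0.236. The high-dose calls named above for genes without a low-dose call, EXLA1 apart, were kept in all 12 fits that left out a plant. The call of EXLA1 was not followed through these fits.

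Members had a median gene length of 1861 bp in the reference table against 2117 bp over all probe sets tied to a gene, and 21 of 33 lay under that median. Their outside means had a median of 5.99 beside 5.77 over all probe sets, with 34 of the 68 under 6. Leaf genes were high in every plant, with RCA, LHCB4.1 and LHCB4.2 between 14.6 and 15.2. PYK10, a root gene, read 6.17 in air plant 3 and 2.11 in each of the other plants. Markers found through the annotation table numbered 3 of 7 for leaf mesophyll, 2 of 4 for guard cells, 1 of 4 for phloem and 1 of 3 for root. The guard cell gene AT1G22690 had means of 9.11 outside, 10.6 in air, 11.6 in low and 10.0 in high plants, and FMA had 6.25, 5.02, 5.45 and 4.18 in the same order. The phloem gene SWEET11 had 12.5, 13.5, 13.3 and 12.7. For xylem, epidermis and flower 0 markers were found in this way. The 3' minus 5' signal of GAPDH control probe sets, a sign of RNA quality, was 0.10 ± 0.04 outside, 0.03 ± 0.10 in air, -0.07 ± 0.07 in low and 0.23 ± 0.05 in high plants (SD, n = 3). For ubiquitin the same signal was -0.40 ± 0.02, -0.37 ± 0.06, -0.30 ± 0.04 and -0.48 ± 0.04, and for actin 0.89 ± 0.06, 0.65 ± 0.14, 0.79 ± 0.13 and 0.89 ± 0.15. The part of these markers and signals in the results was not tested.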

How the data were processed

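The authors deposited log2 probe set intensities made with GCRMA, per the submitters' processing notes. That method corrects background from probe sequence and normalizes between arrays, and it sets weak signals near a common lowest value. The sources used here give neither its version nor its settings, and array scans were not used. Depth has no meaning for arrays, and 3 plants per group limit the precision.

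Values were used as deposited, without a filter. Of 22746 probe sets (64 controls left out), the annotation table tied 13513 to a single gene, 503 to several and 8730 to none, and 13436 were found in the reference table (TAIR10.1, used for names, neighbours and gene lengths). Members were found by the rule given above, and groups come from the sample titles. Group means were compared with limma 3.58.1 in R 4.3.3 on all 12 arrays (4 groups, 8 residual degrees of freedom, mean trend, two-sided, Benjamini-Hochberg over all probe sets, called under 0.05). Every adjusted p comes from limma, which was tested on simulated data for low against air. There it recovered 58 of 100 changes of 1 and 94 of 100 changes of 2 in log2, with 10 false calls. A probe set that was not called may therefore still have changed. Members, lists and the rule for named genes were chosen with earlier results of these data known. Named are the 12 genes with the largest margins, up to 4 per class, those near thresholds and those past limma's threshold in air against outside, a planned test that is given as a description because the rule used both means. AT2G24240, ATG8E, TET10, AT3G19030, AT1G58420 and AT3G18560 were added after their values were seen. Of list genes, up to 4 called at the low and 2 at the high dose are named by adjusted p. Promoter motifs and protein lengths were planned and not analysed, since no sequences were given. Python 3.11.15, pandas 2.3.3 and matplotlib 3.10.9 served for counts and plots. Alternatives were other normalizations, filters, limits, controls, variance models, a replicate block and each plant left out.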

Additional observations from a re-analysis of the deposited data

How the results depend on the processing

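The 68 members became 62 with group medians, 70 with arrays centred on their medians, 70 with quantile normalization and 57 to 81 with a plant left out in turn, and 27 (16 probe sets tied to a gene) were kept in all such fits. The count was 32 with a limit of 1.5, 34 with doses within 0.5, 184 with air alone as control, 188 with outside alone and 29 without air plants 2 and 3. Of 594 recomputed margins of the genes, 32 moved by more than the spread between plants and 0 changed sign. Low against air had 283 calls in the fit reported, 678 with arrays centred (488 higher and 190 lower, against 172 and 111), 1209 among probe sets of at least 4 in at least 3 arrays, 7 with the 6 arrays alone, 160 without air plants 2 and 3 (43 higher and 117 lower, 48 of them shared with the fit reported), and 76 to 2250 with a plant left out. High against air (7867) had 6633 to 7850 with a plant left out. Air against outside (1274) had 1914 after that filter, 58 with 6 arrays alone, 586 without air plants 2 and 3, and 603 to 2137 with a plant left out. The fits with fewer arrays estimate the spread from fewer samples, and causes of the other changes were not tested.

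With the replicate number as a block, 81 probe sets were called in low against air, 7530 in high against air and 845 in air against outside. Replicate numbers were not shown to pair plants: deviations of plants with the same number correlated at -0.273 to 0.231, over 0.1 in 5 of 18 pairs, and a plant correlated best with its own number in 7 of 36 cases. The 3 plants per group, and signals near the lowest value, limit what can be told apart.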
